A study of Homo sapiens with 8 samples.

Results

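The RIP kinases and the proteins that carry out necroptosis were described in RKO cells, a human colon carcinoma line, through 10 of the 57992 genes in the count table. The members were chosen by name, for their place in the pathway, with earlier results of these data known. They are the kinases RIPK1, RIPK2, RIPK3, RIPK4 and DSTYK, the sensor ZBP1 and the pore-forming protein MLKL. The others are the adaptor FADD and its partners CASP8 and CFLAR. RNAseq was done on 8 samples of a single line, 4 transfected with control siRNA and 4 with A20 siRNA, which targets TNFAIP3, the gene of A20. Both groups had wnt3a at 50 ng/mL for 24 hours, so there was no sample without wnt3a, and no change of genotype separated the groups. The study asked how loss of A20 alters gene expression under wnt signaling, and the comparison here asked which of these genes RKO cells transcribe and whether their transcripts differ when A20 is depleted. The labels do not say whether replicates were separate cultures, so the p-values measure the spread between these samples, which may be technical.

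RIP kinases pass signals from death receptors, innate sensors and stress to NF-kB or to cell death. RIPK1 joins the TNF receptor complex, where A20 and other enzymes edit the ubiquitin chains on it. When CASP8 is inactive, RIPK1 or ZBP1 can engage RIPK3, which phosphorylates MLKL, and MLKL then breaks the plasma membrane; FADD, CASP8 and CFLAR form the complex that turns the signal to apoptosis or holds it in check.

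Total counts were 21226451 to 34194273 per library, so that 3 counts, taken as the floor, equalled 0.0874 to 0.141 CPM, the reads of a gene scaled to the size of its library. TNFAIP3 was at 4.92, 5.83, 5.59 and 5.54 CPM in control siRNA replicates 1 to 4 and at 3.47, 3.01, 3.40 and 3.43 CPM in the A20 siRNA replicates. Every A20 siRNA sample lay below every control, at 60.8% of the control mean (log2 fold change −0.71, SE 0.10, edgeR adjusted p = 0.00258). An exact two-sided permutation test gave p = 0.0286, the smallest that 4 against 4 samples allow, and 0.0571 after adjustment over the 2 values tested in this way. Transcript loss was therefore partial, and in bulk RNA fewer expressing cells and less RNA per cell cannot be told apart. Of 8 epithelial markers, EPCAM, KRT8, KRT18 and the intestinal factor CDX2 (332 to 612 reads) were counted, CDH1, KRT19 and KRT20 had 0 reads in all libraries and VIL1 had 0 or 1. The counted epithelial markers summed to 140.4 to 151.6 CPM with control siRNA and 138.1 to 146.3 CPM with A20 siRNA. Among 10 markers of leukocytes, fibroblasts and endothelium, 8 had at most 3 reads in every library, COL1A1 had 0 to 4 and CD68, a lysosomal protein of macrophages that other cells also express, had 18 to 35. Their summed level was 0.822 to 1.56 CPM with control siRNA and 0.778 to 1.22 CPM with A20 siRNA.

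The 10 members fell into 7 that were transcribed at 150 to 3145 reads per library and 3 that were silent at this depth. RIPK3, RIPK4 and ZBP1 had at most 3 reads in every library and did not pass the filter on low counts, while RIPK1, RIPK2, DSTYK, MLKL, FADD, CASP8 and CFLAR did. Silence was common in the genome as a whole. Of the 19629 protein-coding genes, 36.1% had at most 3 reads in every library and 42.4% did not pass the filter. Among the members both shares were 30%.

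**Figure D1:**
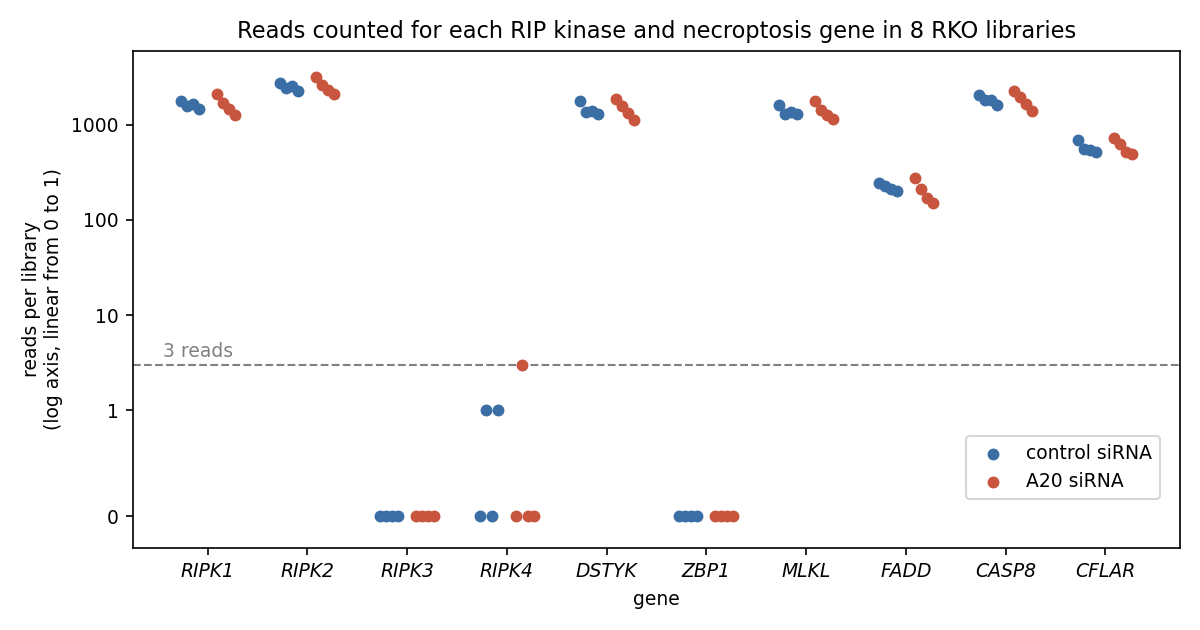
Reads per library (logarithmic axis, linear from 0 to 1) for each of the 10 genes, with a point for each of 4 control siRNA (blue) and 4 A20 siRNA (red) libraries and the floor of 3 reads as a dashed line. RIPK3 and ZBP1 lie at 0 in all 8 libraries, RIPK4 lies between 0 and 3, and the other genes lie between 150 and 3145 reads.

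RIPK3, the kinase that activates MLKL, lies on chromosome 14 from 24336025 to 24340022 on the minus strand (GRCh38, as are all coordinates of genes here). It had 0 reads in all 8 libraries, that is 0 of 213244659 reads. The floor of 3 reads over the pooled libraries equals 0.0141 CPM, and the upper limit of the exact two-sided Clopper-Pearson 95% interval was 0.0173 CPM. ZBP1, a sensor of Z-form nucleic acid that recruits RIPK3, lies on chromosome 20 from 57603846 to 57620576 on the minus strand and was likewise at 0 of 213244659 reads. Per kilobase of exonic sequence the floor of a single library was 0.0271 to 0.0436 CPM for RIPK3 and 0.0162 to 0.0261 CPM for ZBP1. For comparison, CFLAR, the transcribed member that was lowest per kilobase, stood at 0.978 CPM per kilobase. These floors, and the intervals below, cover counting error only.

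RIPK4, a kinase of keratinocyte differentiation that can act on Dishevelled in wnt signaling, lies on chromosome 21 from 41739369 to 41767089 on the minus strand. It had 0, 1, 0 and 1 reads in control siRNA replicates 1 to 4 and 0, 3, 0 and 0 in the A20 siRNA replicates. Together that was 5 reads of 213244659, or 0.0234 CPM (exact Clopper-Pearson 95% interval 0.00761 to 0.0547). All 3 reads of the A20 siRNA group were in replicate 2, and 5 of 8 libraries had 0. The groups overlapped, and a difference was not detectable at this depth (exact two-sided permutation p = 0.943 before and after adjustment over 2 values). RIPK4 protein, which the study is about, was not measured in these files, and silence here refers to reads from poly(A)-selected RNA alone.

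The silent genes differed in the activity of their surroundings. RIPK3 sits 931 bases from ADCY4, which had 0 reads, and 25650 bases from NFATC4, which had 1 to 4. ZBP1 lies between PCK1 (0 to 1 reads) and PMEPA1 (3 to 12 reads). RIPK4 lies 31135 bases from PRDM15, which was transcribed at 391 to 650 reads, and 208252 bases from TMPRSS2, which had 0 to 1. In all, a tested gene stood at 1 of the 6 flanking positions of the silent members and at 12 of the 14 of the transcribed members, where CASP10 counts for both CFLAR and CASP8, a description of these few positions that was not tested.

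RIPK2 led the transcribed members when levels were divided by exonic length. It serves the sensors NOD1 and NOD2 and lies on chromosome 8 from 89757806 to 89791064 on the plus strand. In the control siRNA samples it stood at 31.2 ± 0.802 CPM per kilobase (SD, n = 4), higher than 92.7% of protein-coding genes, silent ones included. CASP8, the initiator caspase that cleaves RIPK1 and RIPK3, followed at 9.62 ± 0.158 CPM per kilobase, and MLKL at 9.29 ± 0.300. DSTYK, a dual-specificity kinase also known as RIPK5, was at 6.94 ± 0.299 CPM per kilobase, RIPK1 at 5.05 ± 0.148 and FADD at 4.94 ± 0.218. CFLAR, which encodes the c-FLIP proteins that restrain CASP8, was lowest at 0.978 ± 0.0400 CPM per kilobase. That was close to the median of 0.782 over all 19629 protein-coding genes, of which 42.4% did not pass the filter.

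By all exonic bases, RIPK2 exceeded CASP8 by 3.24 times and FADD exceeded CFLAR by 5.05 times, and no control library crossed either gap. CASP8 and MLKL overlapped between libraries and so did RIPK1 and FADD, so neither pair could be ordered beyond its spread. The order and the size of the gaps also depended on the definition of length, because RIPK1, CASP8 and CFLAR have 19, 25 and 24 annotated transcripts. Divided by the longest transcript, RIPK1 rose to 9.97 and stood above DSTYK at 6.94, while RIPK2 stood at 37.9, CASP8 at 23.8 and CFLAR at 1.504 CPM per kilobase, which narrowed the gap below RIPK2. FADD shares 1011 of its 1708 exonic bases with a gene on the opposite strand that had 0 reads. When such shared bases were left out of the length, FADD stood at 12.1 CPM per kilobase and ranked next to RIPK2. Its gap to CFLAR, then at 1.11, widened. All reads were kept in this division, so it overstates a gene's level if any of them came from shared bases. That depends on the strand setting, which is not given, and was not tested. RIPK2 was first and CFLAR last under all 3 definitions.

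**Figure D2:**
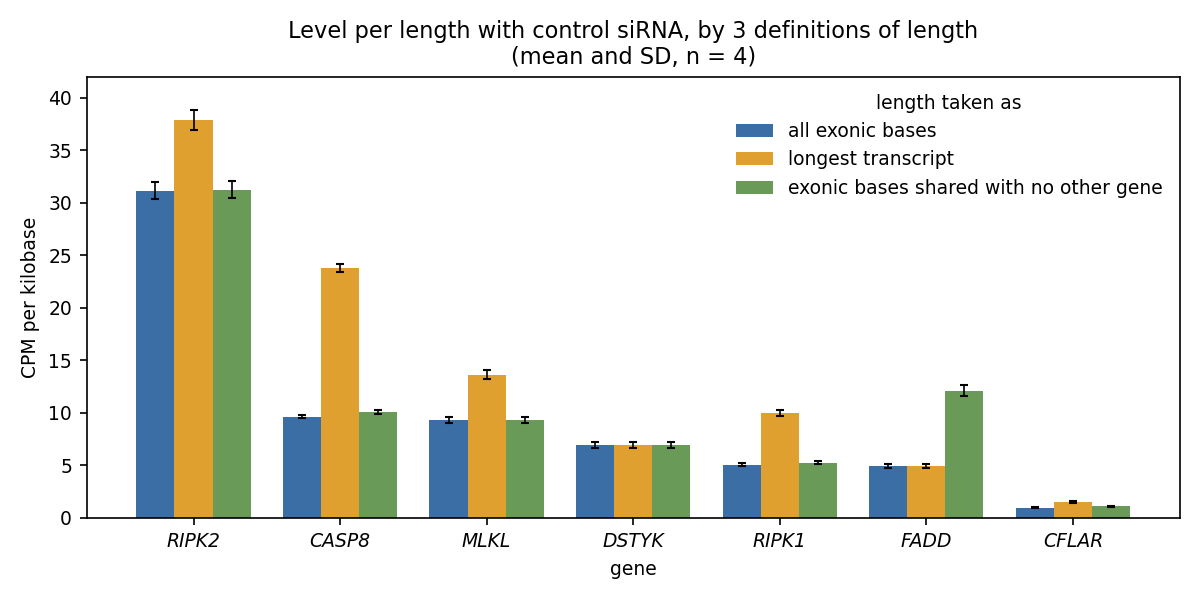
Level with control siRNA in CPM per kilobase for the 7 transcribed genes (bars, mean; error bars, SD, n = 4), with length taken as all exonic bases, the longest transcript, or exonic bases shared with no other gene. RIPK2 is highest and CFLAR lowest for each definition. FADD moves from 4.94 to 12.1 when shared bases are left out of its length and all its reads are kept.

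Promoter sequence is shown for RIPK1, 1 of the kinases that A20 acts on, because its annotated starts differed in the motifs they hold. RefSeq promoter windows (GRCh38.p14, 250 bases before to 50 after a start) matched 6 of the 10 members, with 13 windows, out of 35114 windows in all. RIPK2, RIPK3, RIPK4 and ZBP1 had no window in the table used. Both strands were searched for TATAAA, for a pair of GAAA separated by any 2 bases, a pattern of interferon-responsive promoters, for GGGA followed by any base and TTTCC, an NF-kB pattern, and for CTTTGAT, a TCF pattern. The first RIPK1 start holds TATAAA 30 bases upstream, and the second holds the GAAA pair on the minus strand 67 bases upstream. The third, whose window overlaps that of the second, holds the same GAAA pair 183 bases upstream. Of the 3 CASP8 windows, 1 holds a GAAA pair and another holds TATAAA 139 bases upstream of its start, and the windows of CFLAR, DSTYK, FADD and MLKL hold neither. The capitals mark the matches in the 250 bases before each start, on the plus strand.
RIPK1 first start, chr6:3063717-3063966: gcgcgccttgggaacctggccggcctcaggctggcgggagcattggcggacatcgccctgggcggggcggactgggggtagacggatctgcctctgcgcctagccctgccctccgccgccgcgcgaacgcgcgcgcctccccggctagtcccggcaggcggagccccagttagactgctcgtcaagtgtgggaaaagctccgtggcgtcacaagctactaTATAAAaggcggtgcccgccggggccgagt
RIPK1 second start, chr6:3068128-3068377: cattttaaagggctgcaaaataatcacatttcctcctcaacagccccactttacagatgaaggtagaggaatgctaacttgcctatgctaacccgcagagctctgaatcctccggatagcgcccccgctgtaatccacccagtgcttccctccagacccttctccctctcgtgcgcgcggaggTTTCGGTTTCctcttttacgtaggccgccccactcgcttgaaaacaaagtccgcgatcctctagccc
TATAAA was found in 11.5% of all windows and the GAAA pair in 3.57%. Neither the NF-kB pattern (0.558% of all windows) nor CTTTGAT (2.62%) was found in any of the 13 windows of the members. The counts are per gene and do not tell which start was used.

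The comparison of A20 siRNA with control siRNA called no member. edgeR's quasi-likelihood test, adjusted over the 13412 genes tested, passed 0 of the 7 transcribed members, where 1.25% of all tested genes passed. At an unadjusted p of 0.05 edgeR passed 1 member, FADD, where 16.2% of all tested genes passed. DESeq2 called 0 members after adjustment (1.53% of all tested genes) and 0 before it (10.9%). It gave no adjusted p to some genes, TNFAIP3 among them, and the 1.53% counts these genes as not called. limma-voom called 0 after adjustment (1.23%) and 1, FADD, before it (16.0%), and edgeR with a replicate block called 0 (3.53%). All 7 log2 fold changes were below 0, with a median of −0.02, beside a median of 0.00 and 48.4% below 0 over all tested genes. These shifts were small: for 6 of the 7, the 95% interval reached no lower than −0.10 and no higher than 0.09 at 2 decimals.

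FADD, the adaptor that recruits CASP8 to death receptors, was the member with the largest difference. It lies on chromosome 11 from 70203296 to 70207390 on the plus strand. Its level was 8.12, 8.89, 8.14 and 8.58 CPM in control siRNA replicates 1 to 4 and 7.99, 7.59, 7.04 and 7.05 CPM in the A20 siRNA replicates. Every A20 siRNA sample lay below every control sample, a separation seen in 7.61% of all tested genes in either direction and 3.9% in this one. The means were 8.43 ± 0.372 and 7.42 ± 0.458 CPM (SD, n = 4), so that A20 siRNA was at 88.0% of control. The log2 fold change was −0.17 (SE 0.07, 95% interval −0.32 to −0.02), and it did not pass (edgeR adjusted p = 0.230). Only 150 to 274 reads per library stood behind these values. FADD also has the shortest exonic length of the 10 members, and levels in these libraries moved with gene length. The Spearman correlation of a sample's deviation with exonic length was 0.079, −0.164, −0.111 and −0.200 in control siRNA replicates 1 to 4 and 0.069, −0.082, 0.144 and 0.178 in the A20 siRNA replicates, across genes that are not independent. With a correction for length its log2 fold change was −0.17 (edgeR adjusted p = 0.212).

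CASP8 lies on chromosome 2 from 201233443 to 201361836 on the plus strand. It was at 68.7, 71.0, 70.1 and 68.7 CPM with control siRNA and at 66.8, 69.7, 67.9 and 66.3 CPM with A20 siRNA. In 3 of the 4 A20 siRNA samples it was below the lowest control, but replicate 2 lay within the control range. Its log2 fold change was −0.04 (95% interval −0.10 to 0.02, edgeR adjusted p = 0.513).

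CFLAR, on chromosome 2 from 201116154 to 201176687 on the plus strand, is a neighbour of CASP8, with CASP10 between them. It was at 23.2, 21.7, 21.1 and 21.8 CPM with control siRNA and at 21.32, 22.38, 21.05 and 22.99 CPM with A20 siRNA, with overlapping groups (log2 fold change −0.01, 95% interval −0.10 to 0.09, edgeR adjusted p = 0.951). The balance of the inhibitor to the caspase can be written as a ratio of levels per kilobase. That ratio of CFLAR to CASP8 was 0.102 ± 0.00532 in the 4 control samples and 0.104 ± 0.00508 in the 4 samples given A20 siRNA (mean ± SD), and the ranges, 0.0970 to 0.109 and 0.0998 to 0.112, overlapped. With the longest transcripts the control ratio was 0.0633. Both ratios rest on the lengths taken, 22478 or 14612 bases for CFLAR and 7237 or 2930 bases for CASP8. CFLAR encodes long and short protein forms that gene counts do not separate.

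RIPK1, on chromosome 6 from 3063824 to 3115187 on the plus strand, was at 59.3, 61.8, 63.6 and 61.3 CPM with control siRNA and at 61.7, 61.4, 60.7 and 59.5 CPM with A20 siRNA. The samples of both groups were interleaved, and the log2 fold change was −0.01 (95% interval −0.08 to 0.05, edgeR adjusted p = 0.863). On a linear scale that interval ran from 0.948 to 1.03 of the control level. RIPK1 is the substrate of A20 best known in TNF signaling, and that action is on the protein.

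RIPK2 was at 92.3, 94.8, 98.1 and 96.2 CPM with control siRNA and at 91.7, 93.9, 94.2 and 99.6 CPM with A20 siRNA. The lowest and the highest of these values both came from A20 siRNA samples, and the interval of the linear fold was 0.953 to 1.04 (log2 fold change −0.01, edgeR adjusted p = 0.912).

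DSTYK, on chromosome 1 from 205142505 to 205211702 on the minus strand, was at 59.0, 53.6, 54.4 and 55.2 CPM with control siRNA and at 55.1, 55.9, 54.8 and 53.0 CPM with A20 siRNA. Control replicate 1 was highest and the other samples lay together (log2 fold change −0.02, 95% interval −0.09 to 0.05, edgeR adjusted p = 0.790). MLKL, on chromosome 16 from 74671855 to 74700960 on the minus strand, was at 53.2, 50.7, 52.8 and 54.8 CPM with control siRNA. With A20 siRNA it was at 52.2, 51.0, 51.4 and 54.0 CPM, inside the control range in all 4 samples (log2 fold change −0.02, 95% interval −0.09 to 0.05, edgeR adjusted p = 0.796). MLKL was thus transcribed in both groups while its kinase RIPK3 had no read in either.

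**Figure D3:**
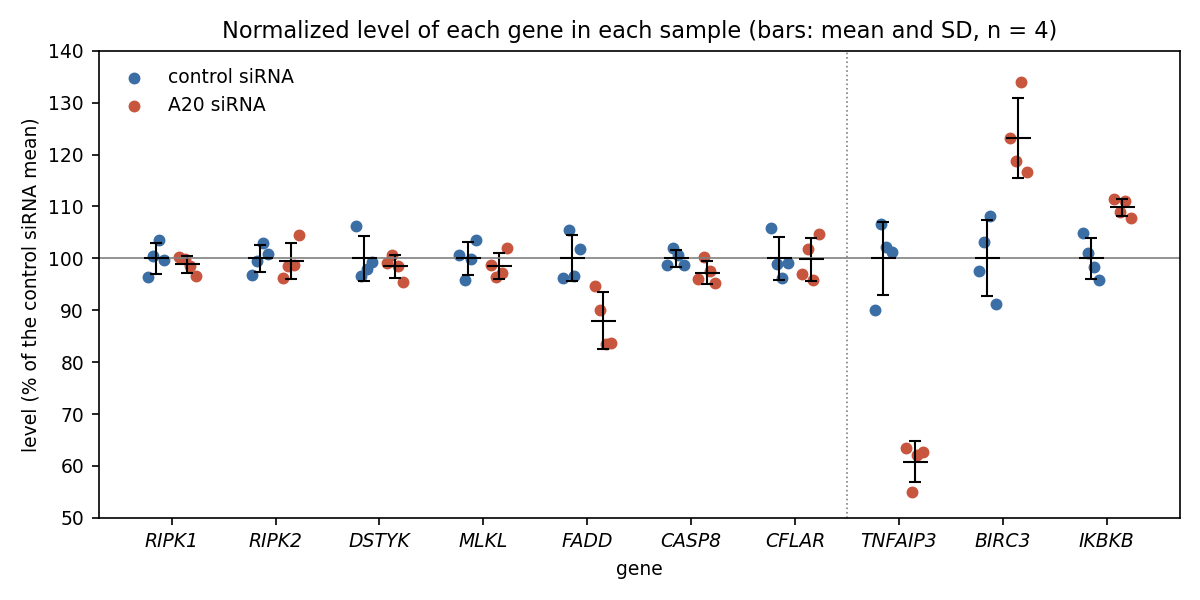
Level of each gene in each sample as a percent of its control siRNA mean, with control siRNA in blue, A20 siRNA in red and mean ± SD in black (n = 4). The 7 transcribed members are on the left, where FADD is the only gene whose groups do not overlap, at 88.0% of control, and TNFAIP3 is at 60.8%.

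**Figure D4:**
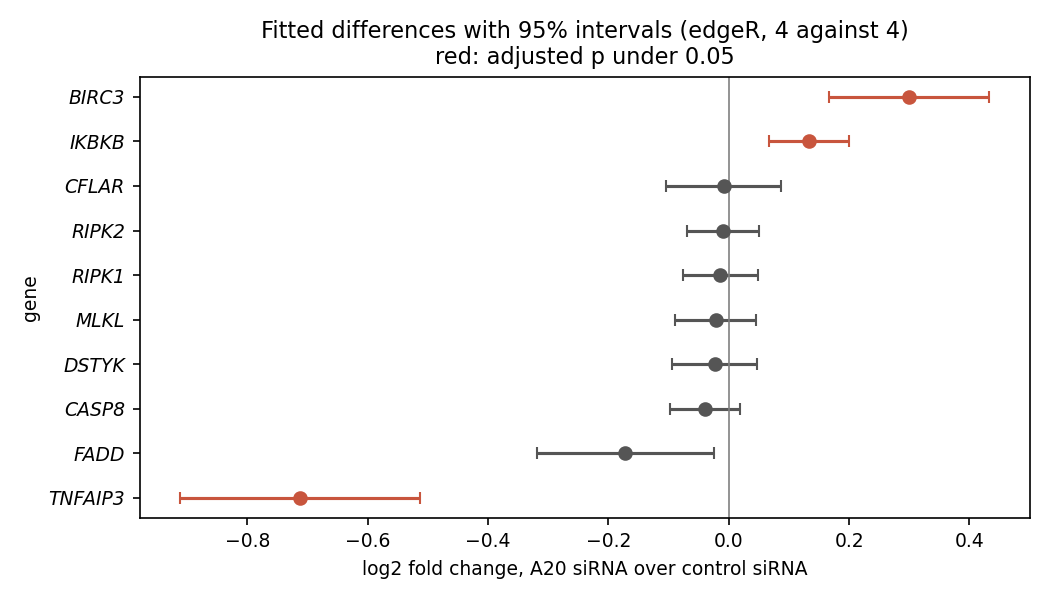
Log2 fold change of A20 siRNA over control siRNA (points) with 95% intervals (bars) from edgeR, with genes of adjusted p under 0.05 in red. Shown are the 7 transcribed members, TNFAIP3, BIRC3 and IKBKB. BIRC3 (0.30) and IKBKB (0.13) are right of 0. TNFAIP3 (−0.71), which is not a member, is furthest left, FADD (−0.17) is left of 0 and the other members lie across 0.

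Around the members, 101 genes of the same pathways were listed by role, also with earlier results of these data known. Of these, 80 were tested and 20 had at most 3 reads in every library. In edgeR 2 of the 80 were higher with A20 siRNA and 0 were lower, where 0.634% and 0.611% of all tested genes were, and 17 of the 80 passed at an unadjusted p of 0.05, where 16.2% of all tested genes did. The median log2 fold change of the 80 was 0.00, as over all tested genes.

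Upstream, the ligands were silent and most of the receptors were present. TNF, LTA, FASLG and TNFSF10 each had 0 reads in all 8 libraries, and TNFRSF1B and TLR4 had at most 2. TNFRSF10B, a receptor of TRAIL, was the highest receptor at 46.0 CPM per kilobase (log2 fold change 0.04, edgeR adjusted p = 0.396), and 0 of the 7 tested receptors passed. TNFRSF25 had the smallest p (log2 fold change 0.25, edgeR adjusted p = 0.339). All 7 receptor adaptors were transcribed and 0 passed. TRAF2, which brings ubiquitin ligases to the TNF receptor, was highest at 24.3 CPM per kilobase (log2 fold change −0.03, edgeR adjusted p = 0.513), and MYD88 had the smallest p (0.07, edgeR adjusted p = 0.296).

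Enzymes and binders of the ubiquitin chains on RIPK1 or RIPK2 gave 1 call among 16 tested. BIRC3, which encodes the ubiquitin ligase cIAP2 and is an NF-kB target, was at 10.84, 11.47, 12.04 and 10.15 CPM with control siRNA and at 13.7, 13.2, 14.9 and 13.0 CPM with A20 siRNA. All 4 A20 siRNA samples lay above all controls (11.1 ± 0.813 against 13.7 ± 0.860 CPM, log2 fold change 0.30, SE 0.06, edgeR adjusted p = 0.0333). Such a separation, in either direction, was seen in 7.61% of all tested genes. Leaving out control replicate 2, control replicate 4 or A20 siRNA replicate 3 ended the call (edgeR adjusted p of at most 0.121).

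Among 11 genes for kinases that phosphorylate RIPK1 and for their subunits, 1 rose. IKBKB, which encodes the IKK beta kinase, was at 58.01, 55.82, 54.35 and 52.98 CPM with control siRNA and at 61.6, 60.2, 61.4 and 59.6 CPM with A20 siRNA. The groups did not overlap (55.3 ± 2.15 against 60.7 ± 0.953 CPM, log2 fold change 0.13, SE 0.03, edgeR adjusted p = 0.0428). That held for 7.61% of all tested genes in either direction. The call lay near the threshold: the adjusted p was 0.0522 by DESeq2 and 0.0803 with the length correction in edgeR. It was kept without control replicate 1 or A20 siRNA replicate 2 and lost without any other single sample (edgeR adjusted p 0.00494 to 0.177). Counts of IKBKG are uncertain, since it has a near-identical pseudogene.

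Downstream of CASP8, 0 of 13 caspases and apoptosis genes passed, all of them transcribed. BAX was highest at 47.1 CPM per kilobase (log2 fold change −0.02, edgeR adjusted p = 0.796), and CYCS, cytochrome c, had the smallest p (−0.07, edgeR adjusted p = 0.167). In the NOD pathway NOD2 had at most 1 read and NOD1 was at 3.81 ± 0.264 CPM with control siRNA (log2 fold change 0.14, edgeR adjusted p = 0.492). ERBIN, a binding partner of NOD2, was the highest gene of that list at 19.6 CPM per kilobase (−0.03, edgeR adjusted p = 0.636).

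Among 8 Dishevelled genes and other partners of RIPK4, 5 were tested and 0 passed, and PKP1, which encodes a desmosomal protein of the epidermis, had 0 reads. DVL1 was highest at 32.0 CPM per kilobase (log2 fold change 0.04, edgeR adjusted p = 0.459) and DVL3 had the smallest p (0.07, edgeR adjusted p = 0.166). Further relatives of the RIP kinases were LRRK1, at 31.7 ± 1.42 CPM with control siRNA (0.11, edgeR adjusted p = 0.166), ANKK1 with at most 2 reads and LRRK2 with 0.

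All 13 modulators of necroptosis were transcribed and 0 passed, with HSP90AB1, a chaperone of RIP kinases, highest at 1434 CPM per kilobase (−0.03, edgeR adjusted p = 0.495). CHMP2A, a subunit of the ESCRT machinery that repairs MLKL damage, had the smallest p (−0.09, edgeR adjusted p = 0.205). Of 13 genes of pyroptosis and other lytic death, 8 had at most 3 reads in every library, including CASP1, NLRP3, PYCARD and IL1B. CASP4 was highest at 17.1 CPM per kilobase (log2 fold change 0.01, edgeR adjusted p = 0.938), and GSDMD, whose cleaved form makes pyroptotic pores, had the smallest p (0.16, edgeR adjusted p = 0.226).

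**Figure D5:**
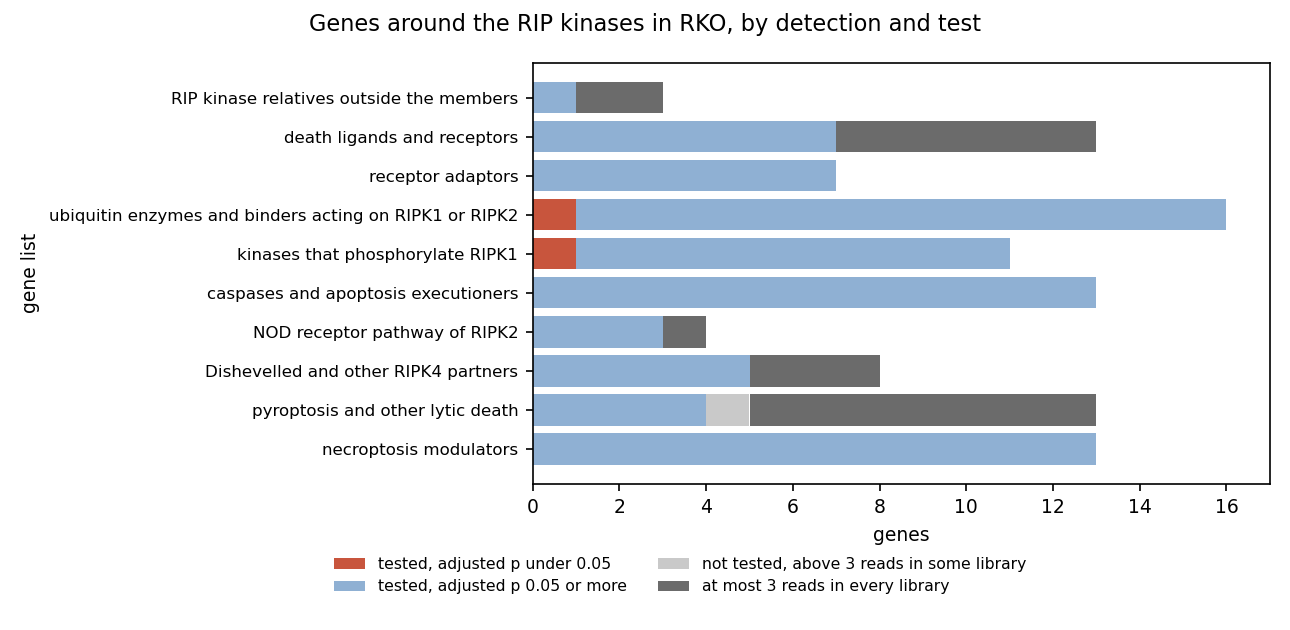
Number of genes in each of 10 lists around the members (horizontal bars), split into tested with adjusted p under 0.05, tested with adjusted p of 0.05 or more, not tested but above 3 reads in some library, and at most 3 reads in every library. BIRC3 and IKBKB are the 2 genes past the threshold, and 8 of 13 pyroptosis genes and 6 of 13 death ligands and receptors are at most 3 reads.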

How the data were processed

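RNA was poly(A)-selected with the Kapa mRNA HyperPrep kit and sequenced as single reads. Per the submitters' processing notes, reads were trimmed with Trimmomatic and mapped with STAR to GRCh38.p7 with a GENCODE annotation, whose release, like the strand setting, is not given in the sources used here. The authors deposited raw counts of reads per gene for 57992 genes, with 21226451 to 34194273 reads per library, and 29238 genes had none.

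Counts were filtered with filterByExpr (minimum count 10), normalized by TMM and tested with the quasi-likelihood test in edgeR 4.0.16 (R 4.3.3), with Benjamini-Hochberg adjustment over 13412 genes and a threshold of 0.05. DESeq2 1.42.0 and limma 3.58.1 (voom) were alternatives, as were other filters and scalings, a replicate block, a loess length correction, the omission of each sample and other definitions of gene length. Scripts were tested on simulated data. A member was called silent where it did not pass the filter. Coordinates and exonic lengths came from GENCODE 44, which matched 56948 genes, and single values were tested by exact permutation with scipy 1.17.1.

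The members and lists were chosen with earlier results of these data known. Named genes were the members, TNFAIP3, and in each list every gene that passed, or otherwise the highest by level per kilobase and that of smallest p.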

Additional observations from a re-analysis of the deposited data

Results flagged for a closer look

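TNFAIP3 in A20 siRNA replicate 2 stood apart from the other A20 siRNA samples, at 3.01 CPM against 3.40 to 3.47 CPM. Its gap to the nearest sample was 0.847 of the group's range, above Dixon's 95% critical value for 4 samples. It was the 1 group of 50 searched that passed, where chance gives about 2.5.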

How the results depend on the processing

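No member was called under any of the 17 alternatives, and 3 members counted as silent under each alternative tried for that count. FADD stayed below 0 in all 17 (log2 fold change −0.22 to −0.15, adjusted p 0.136 to 0.465), and TNFAIP3 stayed below 0 as well, although DESeq2 gave it no adjusted p. Deviations from the group mean correlated little between samples of the same replicate number (−0.00982 to 0.0838). Whether those samples were prepared together cannot be told from this. With a replicate block 0 members and 474 genes in all passed, against 167 without it. The total was 624 without a filter on low counts, 318 with the length correction, 571 with block and length correction, and 12 to 997 with 1 sample left out (lowest without A20 siRNA replicate 3, highest without control replicate 1). Calls were split into 82 lower and 85 higher, but 122 and 83 with DESeq2, 230 and 88 with the length correction and 395 and 176 with block and length correction. Genes called around the members numbered 2, but 1 with DESeq2, 1 with the length correction and 0 to 5 with 1 sample left out (0 without control replicate 2, control replicate 4 or A20 siRNA replicate 3, 5 without control replicate 1). An alternative chosen after seeing the data left out control replicate 1 and A20 siRNA replicate 2, whose length trends ran against their groups (Spearman rho 0.079 and −0.082): 1097 genes in all and 7 around the members were then called. The order of levels had 1 pair inverted with the longest transcript and 4 with unshared bases, the latter definition also added after seeing the data. Directions that changed belonged to uncalled genes near 0. With 1 sample left out, log2 fold changes ran from −0.0351 to 0.00105 for RIPK1, −0.0333 to 0.00434 for RIPK2, −0.0415 to 0.00754 for DSTYK, −0.0296 to 0.0201 for CFLAR and −0.00760 to 0.0237 for CASP4. CASP4 was −0.0113 with the length correction, −0.0112 with block and length correction and −0.0148 with both samples left out, where CFLAR was 0.00892 and ERBIN 0.00297. The cause was not tested. Depth limits RIPK3, RIPK4 and ZBP1 to the floors given above, and whether overlapping genes shared reads depends on the strand setting.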

Other observations

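GSDME, a gasdermin whose cleaved form makes membrane pores, was chosen here after its values were seen. It had 1, 2, 4 and 1 reads in control siRNA replicates 1 to 4 and 9, 7, 9 and 6 in the A20 siRNA replicates without overlap between the groups. In normalized levels, 7.61% of all tested genes separated in either direction, a set that does not include GSDME. In total 31 reads stood against 8, a ratio per library size of 3.80 (exact Clopper-Pearson 95% interval 1.71 to 9.56, counting error only). The gene did not pass the filter on low counts, and without that filter edgeR gave a log2 fold change of 1.85 (SE 0.54, adjusted p = 0.0309), a fit in which 624 of 28754 genes were called.

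The tested genes whose level followed RIPK1 most closely over the 8 samples were GMPPA (Pearson r = 0.973), ORMDL2 (0.969) and DUT (0.941). These correlations are descriptions over samples that share 2 groups, and 26 tested genes had r above 0.9. RIPK4 was too low for such a ranking.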
